A study of Phalacrocorax auritus with 15 samples.

Results

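Of 16181 features counted in embryonic liver of the double-crested cormorant, 84 met a rule for low solvent and higher exposed levels. They averaged under 5 CPM in 4 of the 5 solvent libraries. After exposure to ethinylestradiol (EE2), a synthetic oestrogen, they averaged at least 5 CPM and at least 8 times the solvent mean. Without the 8-fold criterion, 1061 features met the rule. CPM is the count of a feature scaled to a library total of 1000000. Members were chosen from the count table itself. S is the mean CPM of solvent replicates 1, 3, 4 and 5, E is the mean CPM of the 10 exposed libraries, and a member had S under 5, E of at least 5 and E of at least 8 times S. These same values describe the members, so the difference between exposed and solvent livers is given here without a test.

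Eggs received 50 µl of dosing solution into the air cell before incubation, as dimethyl sulfoxide alone or as EE2 at a nominal 3.33 or 33.3 µg per g egg, with actual values, per the labels, of 2.3 and 31.9 µg per g. The left lobe of the liver was sampled at embryonic day 14 according to the sample labels (the series' design text gives a later day), with 5 libraries in each of the 3 groups. No genotype, strain or sex is given. Nothing in the labels ties each replicate to its own egg, and a p-value here reflects only the spread between libraries, which may be technical. Solvent replicate 2 was left out of the rule and is described apart.

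In egg-laying birds, oestrogen from the ovary acts through oestrogen receptors in hepatocytes to switch on genes for yolk precursors, among them the vitellogenins, which carry lipid and phosphate to the yolk, and a small apolipoprotein of very-low-density lipoprotein. These genes are known to be all but silent in the liver of males and embryos until oestrogen is supplied, and vitellogenin in blood or liver is widely used as a marker of oestrogen exposure. This is background: the table gives IDs without gene names, so no member is named as one of these genes, and neither the liver cell types nor oestrogen-response genes could be checked by their markers. Whether a feature is a gene, a transcript or a family of related sequences is not given in the sources used here.

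Library totals lay between 11602455 and 19929889 counts. The 20 features with the most counts held 25.58 to 31.2% of counts in the 4 solvent libraries of the rule, 10.04% in solvent replicate 2 and 9.409 to 19.85% in exposed libraries. The first principal component of log2 CPM over all features tested, scaled as given under processing below, held 39.35% of the variance. On it, solvent replicate 2 was at 87.52 and the other solvent libraries at -78.06 to -16.26. Exposed libraries at the same end as solvent replicate 2 were 3.33 µg/g replicate 5 at 66.09 and 33.3 µg/g replicates 3, 2 and 5 at 52.24, 35.06 and 24.5, and the other 6 lay between -21.84 and 10.95. All solvent columns of the table carry one prefix and all exposed columns another, so whatever the prefix marks and EE2 exposure cannot be told apart, whereas both doses share a prefix.

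The members divided by how many exposed libraries carried the signal. In 59 of the 84, all 10 exposed libraries were above each of the 4 solvent libraries of the rule. In 23 others, 1 exposed library held at least 50% of the CPM summed over the 10, and at least 1 exposed library was at or below the highest of the 4 solvent libraries. The remaining 2 members (ranks 46 and 59 by E) were high in replicate 5 at each dose and low in the other 8 exposed libraries. Their highest library held 49.54% and 44.64% of the exposed sum, short of the 50%. Among the 23, ranks 32, 60 and 61 were likewise high in replicate 5 at each dose. This division was made after the values had been seen. For comparison, complete separation upwards held for 33.6% of all features, and for 48.6% of the 10585 features with E of at least 5 CPM. These background shares depend on the scaling. With TMM scaling (trimmed mean of M-values), a method that allows for a few features taking many counts, they were 8.99% and 12.8%, and 56 of the 84 members were still separated. The rule used this contrast, so nothing is read from the comparison of these shares. A concentration of at least 50% in 1 exposed library held for 0.595% of features with E of at least 5 CPM. It held for 2.46% of the features with S under 5 and E of at least 5 CPM that were not members. Among the 84 members it held for 25, 2 of which (ranks 55 and 84) were also above the solvent libraries throughout. The rule takes a mean, which 1 high library can raise, so nothing is read from these shares either. A higher level throughout the exposed livers was seen in 59 members and not in the 23 carried by 1 library, which are not called induced here. For the 23, the number of exposed libraries above all 4 solvent libraries ran from 1 (rank 58) to 9 (rank 32). Among the 59, ranks 55 and 84 also had 64.68% and 61.5% of the exposed sum in 1 library. The margin of rank 84 was a few counts, with its lowest exposed library at 0.2231 CPM against at most 0.1665 CPM in the 4 solvent libraries. Near silence in solvent, likewise, did not hold for every member in solvent replicate 2.

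**Figure D1:**
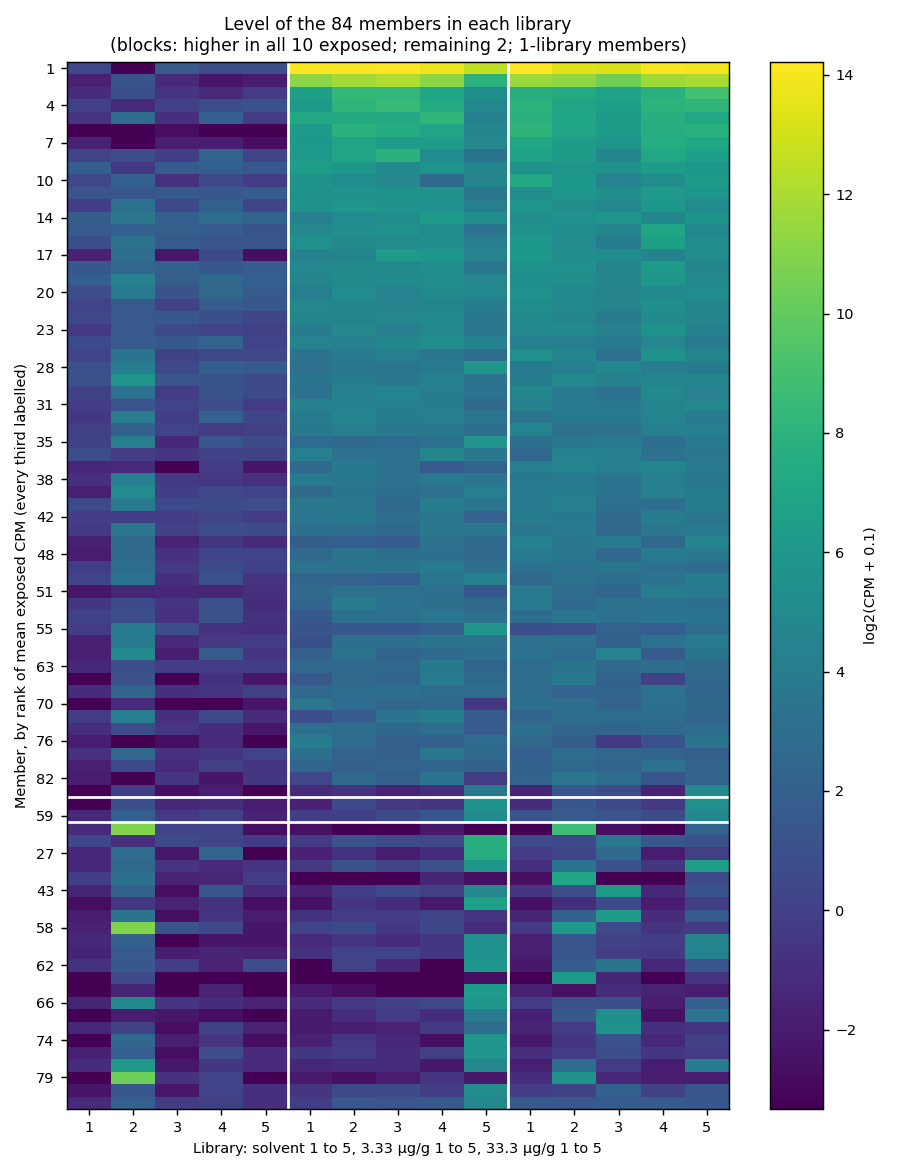
Level of each of the 84 members (rows, numbered by rank of mean exposed CPM) in each of the 15 libraries (columns), as log2(CPM + 0.1). The upper block holds the 59 members above the 4 solvent libraries in all 10 exposed libraries. The lower block holds the 23 members with at least 50% of the exposed CPM in 1 library, most often 3.33 µg/g replicate 5. Some of the 23, such as ranks 32, 43 and 60, are also bright in another exposed library.

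In number of counts the set was dominated by a single feature, s2f_0020325001, which held 75.23% of the summed E of the 84 members, and together with the member of rank 2 89.06%. Members are numbered from here on by their rank in E. Counts were not adjusted for feature length, so the ranks order counts and not the abundance of transcripts. Only 4 further members had an E between 100 and 1000 CPM, while 42 lay between 10 and 100 CPM and 36 below 10 CPM. On the solvent side, 54 members had an S under 1 CPM. The median ratio of E to S was 16.43, with 11 members at 100 or more, 22 between 20 and 100 and 51 under 20. Scaling matters to these ratios: with TMM the median over the members was 10.2 and the lowest 4.847, and the median over all features with E of at least 5 CPM was 1.064, against 1.691 in plain CPM.

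The feature s2f_0020325001 was at 1.204, 2.962, 1.665 and 1.682 CPM in solvent replicates 1, 3, 4 and 5. At 3.33 µg/g its levels in replicates 1 to 5 were 17809, 18081, 19098, 13747 and 5935 CPM. At 33.3 µg/g they were 18762, 11154, 9930, 17307 and 15497 CPM. The groups were far apart: the lowest exposed library was 3.33 µg/g replicate 5, far above every solvent library. In solvent replicate 2 this feature had 0 counts, which allows up to 0.2586 CPM (3 counts of that library; counting error only). The means were 1.878 ± 0.756 CPM in the 4 solvent libraries (SD, n = 4), 14934 ± 5429 CPM for the lower dose and 14530 ± 3844 CPM for the higher (SD, n = 5 per dose). E was 7843 times S, or 5016 times with TMM scaling. By number of counts it stood between positions 10202 and 11729 in the 4 solvent libraries, and in position 3 in 8 of the exposed libraries, position 2 in 3.33 µg/g replicate 4 and position 5 in 3.33 µg/g replicate 5. A feature far down the order in the 4 solvent libraries was thus among the 5 with the most counts in every exposed library.

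The member of rank 2 showed the same contrast at a lower level. Its solvent values were 0.2007, 0.3485, 0.111 and 0.1682 CPM in replicates 1, 3, 4 and 5, and 2.241 CPM in replicate 2. At 3.33 µg/g it was at 2281, 3488, 4482, 2303 and 242.6 CPM in replicates 1 to 5. At 33.3 µg/g it was at 3002, 2524, 1358, 3367 and 4032 CPM. Replicate 5 at 3.33 µg/g was well below the other exposed libraries, and all exposed libraries were above all solvent libraries. Its means were 0.207 ± 0.101 CPM in the 4 solvent libraries (SD, n = 4), 2559 ± 1586 CPM for the lower dose and 2857 ± 1003 CPM for the higher (SD, n = 5 per dose).

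The member of rank 6 came closest to complete absence among those seen in every exposed library. It had 1 count in the 4 solvent libraries of the rule, in replicate 3, and 0 in solvent replicate 2. Its levels at 3.33 µg/g were 67.38, 230.6, 181.5, 118.6 and 26.76 CPM in replicates 1 to 5, and at 33.3 µg/g 273.9, 122.8, 83.93, 195.5 and 221.1 CPM. Every exposed library was therefore at 26.76 CPM or more where solvent livers were at or near 0. From the 24411 exposed counts and the 1 solvent count the ratio was 11302, and its exact 95% interval for counting error alone ran from 2028 to 446436. Rank 70 was similar at a low level, with 2 counts in the 4 solvent libraries and 1050 in the exposed libraries. Its ratio was 243.1 with an interval of 67.12 to 2010. Both intervals pool the libraries of a group and leave out the spread between them. They use the counts that chose the members, so neither is a test of exposure.

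The other members among the first 12 ranks were also higher in each exposed library than in each of the 4 solvent libraries. The lowest, median and highest exposed libraries of rank 3 were at 41.87, 188.6 and 488.4 CPM, against at most 0.729 CPM in the 4 solvent libraries. Those of rank 4 were at 29.58, 211 and 363.5 CPM, against at most 2.075 CPM. Rank 5 ran from 20.75 to 279.3 CPM and had at most 3.774 CPM in those solvent libraries, but 6.809 CPM in solvent replicate 2. Rank 7 ran from 27.83 to 181.9 CPM, against at most 0.2007 CPM, and was at 0 counts in solvent replicate 2. Rank 8 ran from 10.65 to 243.4 CPM, against at most 4.662 CPM. Rank 9 ran from 26.07 to 88.27 CPM and rank 10 from 6.467 to 153 CPM, against at most 3.774 and 1.387 CPM. Ranks 11 and 12 ran from 12.6 to 70.45 CPM and from 18.93 to 65.93 CPM, against at most 3.533 and 4.273 CPM. In solvent replicate 2 rank 12 was at 9.05 CPM. In 11 of these 12 members the lowest exposed library was 3.33 µg/g replicate 5, and rank 10 was the exception.

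**Figure D2:**
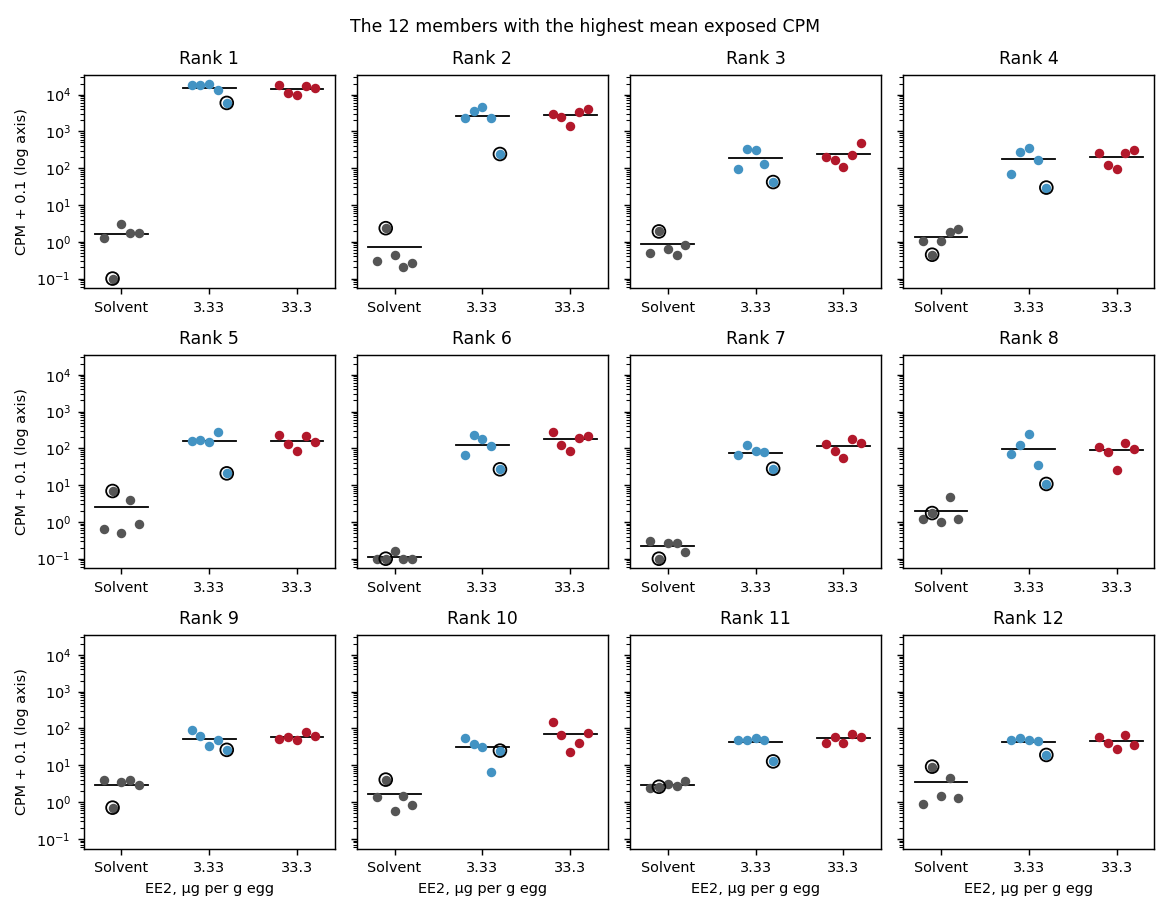
CPM + 0.1 on a log axis in each library for the 12 members with the highest mean exposed CPM; points are libraries, horizontal bars are group means, and open rings mark solvent replicate 2 and 3.33 µg/g replicate 5. The ringed exposed library is the lowest of the 10 in 11 panels, and in each panel every exposed point lies above every solvent point.

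Over the 59 members seen in every exposed library, E ran from 5.08 to 14732 CPM with a median of 14.7, and the ratio of E to S from 8.087 to 13075 with a median of 14.67. Replicate 5 at 3.33 µg/g was the lowest of the 10 exposed libraries in 26 of the 59, and 3.33 µg/g replicate 1 in 10. Replicate 4 at 33.3 µg/g was the highest in 19 and 3.33 µg/g replicate 4 in 10. These counts span both doses and are given without the share over all features, so nothing is read from them. The median coefficient of variation of the 59 members between the 5 libraries of a dose was 40.38% at 3.33 µg/g and 35.1% at 33.3 µg/g. Over all features with E of at least 5 CPM it was 19.94% and 14.4%. Those features were not matched to the members for level, so nothing is read from the difference. The part that the composition of 3.33 µg/g replicate 5 plays in its low values was not tested. In a bulk sample, fewer cells of a type and less RNA per cell cannot be told apart.

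As a share of all counts, the 84 members took 0.0063 to 0.01325% of each of the 4 solvent libraries, 0.57% of solvent replicate 2 and 0.828 to 2.578% of each exposed library. The mean share was 1.942 ± 0.688% for the lower dose and 1.975 ± 0.496% for the higher (SD, n = 5 per dose), and 1.493 ± 0.543% and 1.453 ± 0.384% came from s2f_0020325001 alone. The lowest exposed share, 0.828%, was that of 3.33 µg/g replicate 5, and the next was 1.282% in 33.3 µg/g replicate 3. The other 58 members seen in every exposed library held 0.1141 to 0.6664% of exposed libraries and 0.005519 to 0.01085% of the 4 solvent libraries. In solvent replicate 2 the 0.57% had another make-up, since 0.5223% came from members that were carried by a single exposed library.

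**Figure D3:**
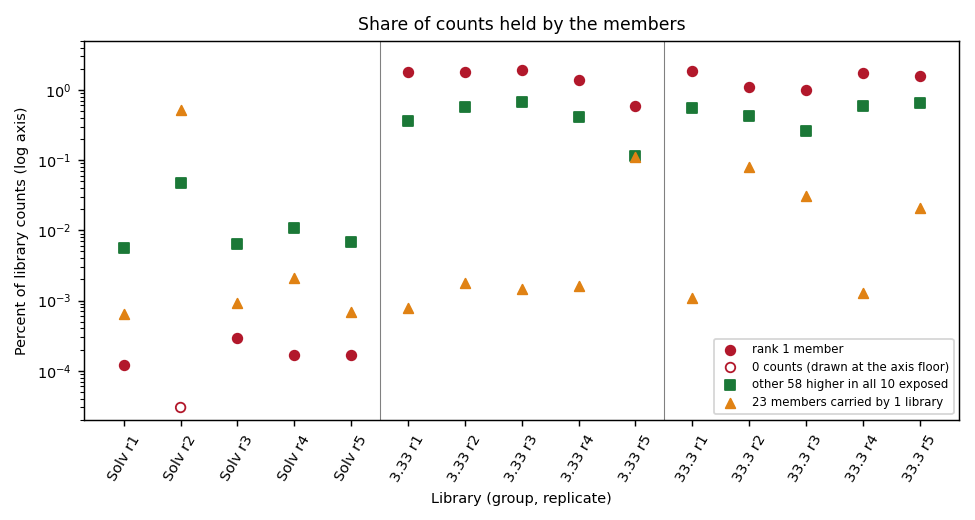
Percent of each library's counts (log axis) held by the rank 1 member, by the other 58 members above the 4 solvent libraries in all 10 exposed libraries, and by the 23 members carried by 1 exposed library. The last group reaches 0.5223% in solvent replicate 2 and at least 0.02087% in 4 exposed libraries, and is at most 0.001799% in the other 6.

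The 23 members carried by a single exposed library were found in 4 libraries. The library that held at least 50% of the exposed sum was 3.33 µg/g replicate 5 for 13 of them, 33.3 µg/g replicate 2 for 5, 33.3 µg/g replicate 3 for 4 and 33.3 µg/g replicate 5 for 1. These are the 4 exposed libraries with the highest values on the first principal component given above, and the part of whatever that component measures was not tested. For 21 of the 23 the library with the second highest level was also among these 4. In the other 6 exposed libraries no member of this group exceeded 3.161 CPM, and the median of their highest value there was 0.8279 CPM. Such members met the rule through a mean: their median exposed library was at 0 to 2.814 CPM.

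The feature s2f_0001244011, rank 64, was the only member with no count in the 4 solvent libraries. It was at 74.38 CPM in 33.3 µg/g replicate 2. Of the other 4 libraries at 33.3 µg/g, replicates 3 and 5 had 0.2515 and 0.5088 CPM and replicates 1 and 4 had 0 counts. At 3.33 µg/g it was at 0.06268 CPM in replicate 5 and at 0 counts in replicates 1 to 4. In solvent replicate 2 it was at 1.551 CPM, above 9 of the 10 exposed libraries. A single library therefore accounts for 98.91% of its exposed sum. Against the floor of 3 counts over the 4 solvent libraries together, its 990 exposed counts were at least 152.8-fold higher. That single library set the bound.

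The member of rank 27 had its highest value in another library. It was at 199 CPM in 3.33 µg/g replicate 5, at 6.413 CPM in 33.3 µg/g replicate 3 and at 0.1505 to 1.144 CPM in the other 8 exposed libraries. Its solvent values in replicates 1 to 5 were 0.3011, 6.895, 0.1162, 5.106 and 0 CPM. Solvent replicates 2 and 4 were thus above most exposed libraries. Rank 32 was high in replicate 5 at both doses, at 60.11 CPM at 3.33 µg/g and 102 CPM at 33.3 µg/g, and at 0.4516 to 10.38 CPM in the other 8 exposed libraries. Replicate 5 at each dose formed the top pair in 11 of the 84 members. The share over all features is not given, and the rule takes a mean that high libraries raise, so nothing is read from this count.

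Solvent replicate 2 gives the members' level in a solvent library that the rule did not use. It was under 5 CPM for 47 of the 84 members, and at 5 CPM or more for 37. Over all 6511 features with S under 5 CPM this library was under 5 CPM for 71.4%. Over the 977 of them with E of at least 5 CPM that were not members it was so for 12.7%. Those 977 missed the rule because their S was too high for their E, and neither set was matched to the members for S. Nothing is therefore read from a comparison of the members with these shares. Solvent replicate 2 was above all 4 other solvent libraries in 66 members. That count is given without the share over all features, and nothing is read from it. It was below all 10 exposed libraries in 40 members. The same held for 13.3% of all features and 17.9% of those with E of at least 5 CPM. The rule chose the members as high in those exposed libraries, so nothing is read from the comparison of these shares. Of these 40, 39 belonged to the 59 members seen in every exposed library. Ranks 1, 2, 3, 4, 6, 7, 8 and 9 were at 2.241 CPM or less in solvent replicate 2. Ranks 10 and 11 were at 3.965 and 2.499 CPM there, and ranks 5 and 12 at 6.809 and 9.05 CPM. With 1 library no test of these counts is possible.

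At the other extreme, 3 members exceeded 1000 CPM in solvent replicate 2, and each had its highest exposed level in 33.3 µg/g replicate 2. Rank 13 was at 1872 CPM in solvent replicate 2, at 430.6 CPM in 33.3 µg/g replicate 2, at 4.732 CPM in 33.3 µg/g replicate 5 and at 0 to 1.162 CPM in the other 12 libraries. Rank 58 was at 1901 and 73.09 CPM in those 2 libraries and at most 2.149 CPM elsewhere. Rank 79 was at 1281 and 53.86 CPM and at most 1.11 CPM elsewhere. A solvent library thus held more of these 3 members than any exposed library did. In all, 10 members were higher in solvent replicate 2 than in every exposed library. This count is given without the share over all features, and nothing is read from it. With all 5 solvent libraries in S, 46 of the 84 members met the rule and no other feature did.

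**Figure D4:**
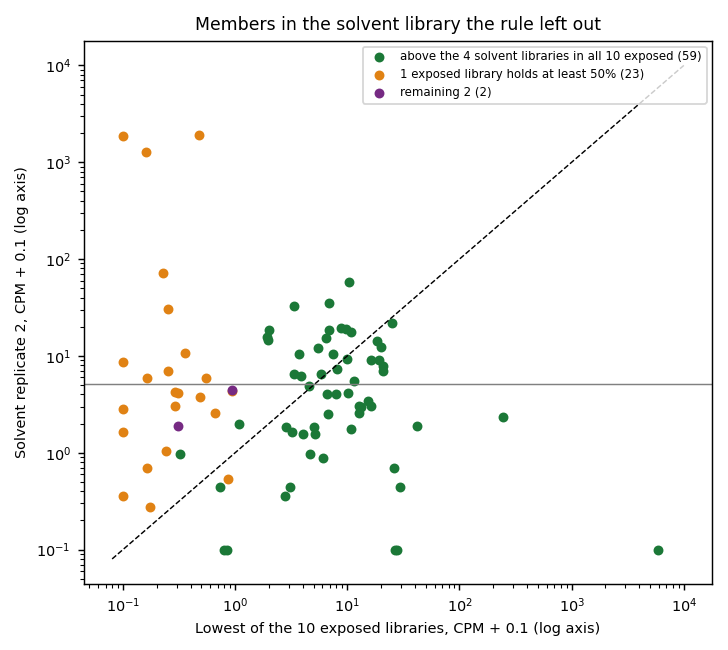
CPM + 0.1 in solvent replicate 2 against the lowest of the 10 exposed libraries for each member, on log axes. The dashed line marks equality and the grey line 5 CPM; 40 members lie below the dashed line, 39 of them among the 59 seen in every exposed library, and 3 members carried by 1 library lie above 1000 CPM.

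The comparison of 33.3 with 3.33 µg/g asked whether the higher dose raised the members further. The contrast is not independent of the rule, because a feature could reach the exposed mean through 1 dose, or through 1 library of it. Of the 84 members, 68 met the rule from the libraries of 3.33 µg/g alone, 70 from those of 33.3 µg/g alone and 54 from each, so the differences between doses are given as a description of the members. Over the members tested, the median log2 difference was 0.188, 53 members being higher and 26 lower at 33.3 µg/g, beside a median of 0.00397 over all 13014 features tested. This median was 0.336 without 3.33 µg/g replicate 5 and 0.0923 without 33.3 µg/g replicate 5. It was 0.339 with limma-voom and 0.334 with the replicate number as a block, each with 62 members higher and 17 lower. The filter on low counts left 79 of the 84 members; the 5 that failed it were all carried by a single library, and all 59 members seen in every exposed library passed. No member passed the edgeR quasi-likelihood test between doses (smallest adjusted p = 0.999), and the share called over all features was 0%. At an unadjusted p under 0.05, edgeR gave 9 of the 79 members, beside 3.68% of all features. Of these 9, 6 were among the 18 tested members carried by a single library. Each of these 6 met the rule from the dose of that library and not from the other dose, and nothing is read from their count. The other 3 were among the 59. DESeq2 called 4 features in all (0.0307%), none a member, with no adjusted p for 18 members, and limma-voom called 0 (0%). The median deviation of the members varied between libraries of a dose with an SD of 0.32 on the log2 scale.

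For s2f_0020325001 the log2 difference, 33.3 minus 3.33 µg/g, was -0.08 with a standard error of 0.612 and a 95% interval of -1.39 to 1.23 (edgeR adjusted p = 0.999). For rank 2 it was 0.10 with an interval of -1.25 to 1.44 (edgeR adjusted p = 0.999). A doubling or a halving by dose is thus inside the interval for both, and the p-value does not show that the doses act alike. The fit shares its spread with solvent replicate 2, and without that library the standard error of s2f_0020325001 fell from 0.612 to 0.365 with no change in the call (edgeR adjusted p = 0.979). Among ranks 3 to 12, the differences ran from -0.14 for rank 8 to 1.19 for rank 10. Rank 10 averaged 30.38 ± 17.23 CPM for the lower dose and 71.4 ± 49.99 CPM for the higher (SD, n = 5 per dose), with a log2 difference of 1.19, a standard error of 0.557 and overlapping libraries (edgeR adjusted p = 0.999). Without 33.3 µg/g replicate 1 the difference of rank 10 was 0.67.

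Over the 59 members seen in every exposed library, the log2 differences ran from -1.61 to 1.61 with a median of 0.236. Of these, 43 were higher and 16 lower at 33.3 µg/g. The lowest, -1.61, was that of rank 55, with 57.47 CPM in 3.33 µg/g replicate 5 and at most 7.429 CPM in every other exposed library. The 95% interval lay wholly within 2-fold for 9 of the 59, and for 20 without solvent replicate 2. The median standard error was 0.486 over the 59 and 0.205 over all features tested. The share of all features within 2-fold is not given, so nothing particular to the members is read from these counts. The extremes over all tested members came from single libraries. Rank 13, with 430.6 CPM in 33.3 µg/g replicate 2, had a log2 difference of 10.78 with a standard error of 3.88, and rank 27, with 199 CPM in 3.33 µg/g replicate 5, had -4.19 (standard error 1.84). Neither passed the edgeR test (adjusted p = 0.999 for both). Each met the rule from the dose of its high library and not from the other dose. The direction of these differences was thus fixed by the selection, and nothing is read from them. The difference of rank 13 was 4.84 without 33.3 µg/g replicate 2 and 3.86 with limma-voom. Without 3.33 µg/g replicate 5 the difference of rank 27 changed sign to 2.48 (edgeR adjusted p = 0.761).

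**Figure D5:**
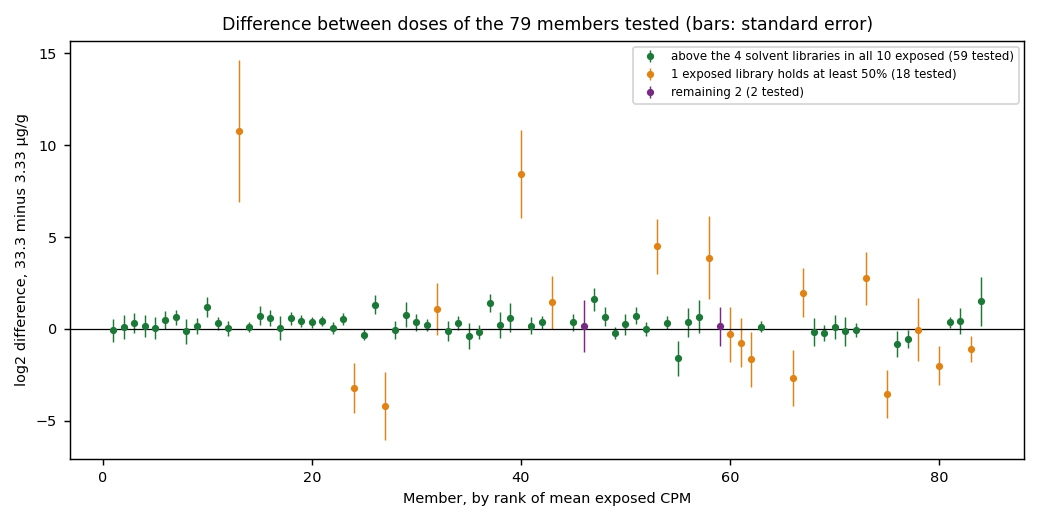
Log2 difference between 33.3 and 3.33 µg/g for the 79 members tested, against rank by mean exposed CPM; bars are standard errors. The 59 members seen in every exposed library stay between -1.61 and 1.61, and members carried by 1 library reach -4.19 and 10.78.

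The thresholds cut through a continuous range. The members with the lowest E were at 5.08 and 5.094 CPM, and features that met the other criteria were left out at 4.604 and 4.482 CPM. The members with the smallest ratio of E to S were at 8.087 and 8.266, and the nearest features outside at 7.873 and 7.734. The highest S among members was 4.873 and 4.184 CPM, and the nearest features outside had an S of 6.006 and 6.593 CPM with an E of 115.3 and 53.23 CPM. The mirror image of the rule (E under 5 CPM, S at least 5 CPM and at least 8 times E) held for 38 features. Leaving 3.33 µg/g replicate 5 out of E gave 67 features, 66 of them among the 84. Of the 84 members, 11 shared the first 7 digits of their ID with another member, in 5 groups. Counted against all features, 65 of the 84 shared them with some other feature, as did 62.9% of all features; what these digits encode is not given in the sources used here, and reads of related sequences may be split between such features.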

How the data were processed

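The values deposited by the authors are raw whole-number counts, 1 column for each of 15 liver libraries. How reads were aligned and counted, on which reference and with which strand setting, is not given in the sources used here. Columns were matched to samples by group letter, final digit and a header line with the dose class, taking Medium for 3.33 µg/g and High for 33.3 µg/g. In all, 0 columns had no sample. The members and lists were chosen with earlier results of these data known. CPM was the count divided by the column total, times 1000000. Members were those with S under 5, E at least 5 and E at least 8 times S; ranks follow E.

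Doses were compared with the edgeR quasi-likelihood F-test (two-sided) in a fit of all 15 libraries by group, with TMM scaling, the default filter by expression (minimum count 10, minimum total 15; 13014 features left) and Benjamini-Hochberg adjustment over these features at 0.05. The standard error was the absolute log2 difference divided by the square root of F, and intervals used the t distribution of that fit. Principal components used log2 CPM of the filtered features, with TMM-scaled library sizes in place of column totals and a prior count of 2. Software was edgeR 4.0.16, DESeq2 1.42.0 and limma 3.58.1 under R 4.3.3. The fit was also run on simulated data, and the outcome is not given here.

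Without gene names, the fixed rule gave 2 members by ID: the highest E, and the highest E among members with the fewest solvent counts. Others are given by rank (ranks 1 to 12, the extremes of the dose difference and those at the thresholds); ranks 32, 58, 70 and 79, and the division by libraries, were chosen after their values were seen. Alternatives were other scalings, filters, thresholds and tests, a replicate block, and leaving out libraries. No 2 libraries of a group agreed within sampling noise (chi-square per degree of freedom of at least 16.42), so each was counted once.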

Additional observations from a re-analysis of the deposited data

Results flagged for a closer look

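Of 57 groups of 5 libraries examined for the values reported above, 21 flags arose from a library farther from the other 4 than Dixon's 95% critical value of 0.71 allows. A rate of about 1 in 20 groups by chance holds for normally distributed values, and was not checked for these CPM. A group with counts in only 1 library is always flagged. These values were also picked from the same data, and values of a single library are linked.

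Solvent replicate 2 stood above the other 4 solvent libraries for the members of ranks 2, 3, 10 and 64. Rank 2 was at 2.241 CPM (others 0.111 to 0.349) and rank 3 at 1.81 CPM (others 0.333 to 0.729). Rank 10 was at 3.965 CPM (others 0.465 to 1.39) and rank 64 at 1.551 CPM (others 0). Solvent replicate 2 stood far above the others for ranks 13, 58 and 79, at 1872, 1901 and 1281 CPM. The same held for the share of counts held by all members, 0.57%, which was also 0.57% without rank 1. Solvent replicate 3 had the only count of rank 6 in solvent, 0.05808 CPM, and solvent replicate 4 was high for rank 8 at 4.662 CPM, where the others had 0.871 to 1.64.

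Replicate 5 at 3.33 µg/g was low for rank 11 (12.6 CPM, others 47.5 to 53.3) and rank 12 (18.93 CPM, others 45.4 to 56.2). It was high for rank 27 at 199 CPM, and held the only count of rank 64 at that dose, 0.06268 CPM. Replicate 4 at 3.33 µg/g was high for rank 79 at 0.5122 CPM, a level of few counts.

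Replicate 2 at 33.3 µg/g was high for ranks 13, 58, 64 and 79, at 430.6, 73.09, 74.38 and 53.86 CPM, where no other library of that dose exceeded 4.73 CPM. Replicate 3 at 33.3 µg/g was high for rank 27 at 6.413 CPM, others 0.151 to 1.14. No cause of these values was tested.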

How the results depend on the processing

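The number of members, 84, was 52 with TMM and 52 with median-of-ratios scaling (all 52 among the 84 in both), 46 with all 5 solvent libraries, 180 with a 4-fold and 43 with a 16-fold threshold, 48 with E of at least 10 CPM, and 54 without the 4 exposed libraries that carry single-library members (added after seeing the data; 51 of the 84). It was 78 with E from 3.33 µg/g alone, 86 from 33.3 µg/g alone, 73 and 91 with S under 2 and 10 CPM, and 57 with medians, which kept 52 of the 59 members seen in every exposed library and 0 of the 23 carried by 1. Leaving out each library gave 67 (3.33 µg/g replicate 5) to 123 (solvent replicate 4). Of the 59 separated members, 35 met the rule with TMM, 35 with median-of-ratios scaling and 35 with all 5 solvent libraries. Of the 23 carried by 1 library, 15, 15 and 10 did. The number of separated members, 59, became 39 with all 5 solvent libraries and 56 with TMM or median-of-ratios scaling. Leaving out each library gave 59 to 64. Leaving out a library could only keep or raise the 59, and adding solvent replicate 2 could only keep or lower it, so these directions were fixed in advance. The 25 concentrated in 1 library became 18 to 27 leaving out each exposed library. All of these counts were added after seeing the data. Shares without rank 1 were 0.4484% at 3.33 µg/g and 0.5219% at 33.3 µg/g; leaving out each library gave 0.00871 to 0.1496% in solvent, 1.78 to 2.22% at 3.33 µg/g and 1.86 to 2.15% at 33.3 µg/g. Under 2 CPM in solvent replicate 2 lay 28 members.

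Between doses 0 members were called under every alternative run. Uncalled log2 differences changed sign in places: rank 1 was 0.00051 with limma-voom and -0.3138 to 0.04645 leaving out each library, rank 8 was 0.3956 with limma-voom and 0.1075 with the replicate block, and rank 27 was 0.08022 with the block. Leaving out each library also turned signs: rank 2 ran from -0.2033 to 0.4047, rank 3 from -0.1104 to 0.6779, rank 4 from -0.1339 to 0.5833, rank 5 from -0.2546 to 0.2976, rank 8 from -0.4381 to 0.5621, rank 9 from -0.0468 to 0.497, rank 12 from -0.2019 to 0.169 and rank 27 from -5.435 to 2.483. The cause was not tested. The replicate block called 0 members. Deviations of same-numbered libraries at the doses correlated from -0.404 to 0.434. Those of solvent correlated from -0.362 to 0.546 with 3.33 µg/g and from -0.397 to 0.5 with 33.3 µg/g. Whether the numbers pair the samples cannot be told from these values. Values of a few counts limit the low members.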
